A study of Rattus norvegicus with 12 samples.

Results

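The listed regions described here are the CpG-dense ones among the stretches of rat DNA that the authors listed as differing between islets of growth-restricted and control rats. For each region the CpGs counted in the authors' table were divided by the length in kb, and regions with at least 1.89 CpGs per kb were kept. This left 206 of 512 listed regions (40.2%), and the other 306 serve as the comparison. The DNA came from pancreatic islets of rats aged 2 weeks. One group is labelled IUGR, for intrauterine growth restriction, with sample titles that read SGA, and the other is labelled Control. The labels give no strain, sex or method of growth restriction, and do not say whether a replicate is 1 animal or a pool. They describe 12 libraries, 6 per group: 3 replicate numbers, each cut once with HpaII and once with MspI. The table of regions holds 3 Control and 2 IUGR scores for each region, and each was taken as 1 replicate value.

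CpG methylation is the addition of a methyl group to cytosine where guanine follows. In mammalian DNA most CpGs are methylated, while CpG islands, the CpG-rich stretches at many promoters, are mostly free of it. Islets hold the insulin-secreting beta cells, and poor growth before birth is a known risk for later diabetes. HELP-tagging compares sequence tags from CCGG sites cut by HpaII, an enzyme that methylation blocks, with tags from the same sites cut by MspI, which is not blocked. The deposited score runs from 0 to 100, and the sources used here do not name its methylated end, so values are given as higher or lower scores. Density here counts the CpGs of the authors' table, not all CpGs of the sequence, and does not mark a region as a CpG island.

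Every listed region had been chosen by the authors on the difference described below, so no call on a region is independent evidence of a difference between the groups. The smallest absolute difference in the list was 10.2. All 206 dense regions passed limma at an adjusted p of 0.05 (Benjamini-Hochberg over the 512 regions), against a background of 100% of all listed regions. Control and IUGR values did not overlap in any of the 206, again against 100% of all listed regions. The lists do not state the order of replicates, so a first or second value is a place in the list and may not be the same animal throughout. The first Control value was the lowest of its list, or tied for the lowest, in 41.7% of dense regions and in 50.3% of the others. Ties, such as several values at 0, all count for the first place here, so these shares favour it. Depth is unknown.

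Dense regions had higher scores than the others in both groups, and the gap was smaller in both IUGR values than in any Control value. Over the 206 dense regions the mean scores of the 3 Control values were 26.4, 27.6 and 27.3, and those of the IUGR values 45.9 and 45.5. The group means were 27.1 ± 0.638 (SD, n = 3) for Control and 45.7 ± 0.247 (SD, n = 2) for IUGR. The other 306 regions averaged 13.9 ± 0.995 (SD, n = 3) and 37.7 ± 0.0746 (SD, n = 2). The difference between the groups was thus 18.6 in dense regions and 23.8 in the others. The exact permutation test over replicate values gave two-sided p = 0.2 for the dense regions, the smallest p that 10 splits of 3 and 2 values allow.

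The gap between dense and other regions was taken within each value. It was 13.5, 12.8 and 13.1 in the Control values and 8.07 and 7.83 in the IUGR values. The values of the groups did not overlap, and the gap changed by −5.18 points from Control to IUGR islets (two-sided exact permutation test, p = 0.2, the smallest possible). With medians over all regions in place of means the change was −1.94 points. Since a high Control score leaves less room to rise, the gap and the starting score cannot be told apart here.

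**Figure D1:**
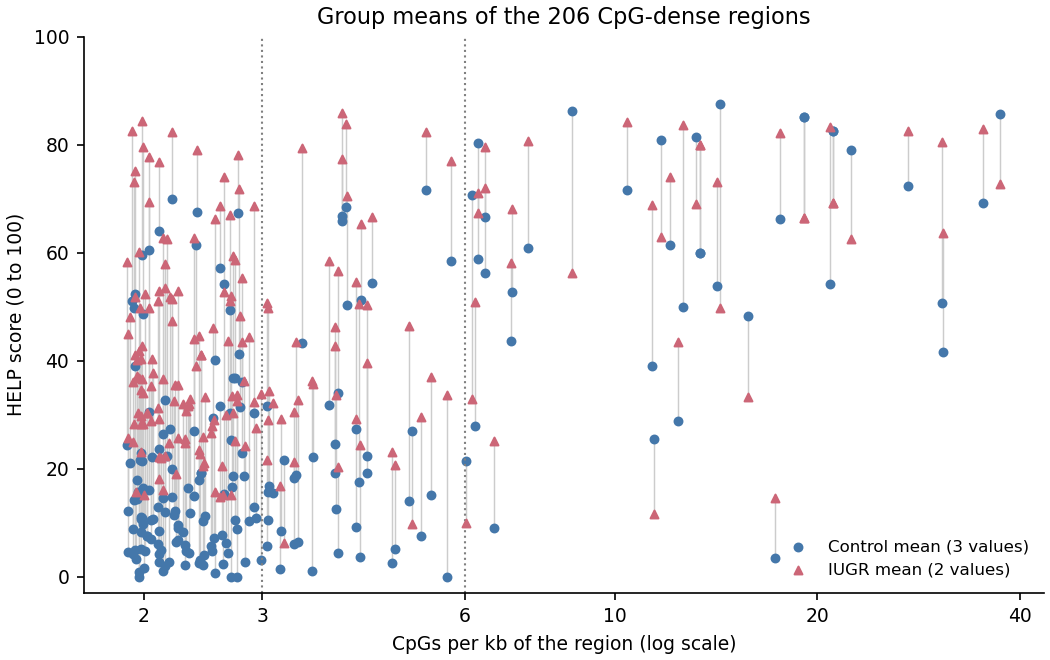
Mean HELP score (0 to 100) of each of the 206 dense regions in Control (circles, mean of 3 values) and IUGR islets (triangles, mean of 2 values) against CpGs per kb on a log axis; a grey line joins the means of a region and dotted lines mark 3 and 6 CpGs per kb. Low Control scores crowd the left side, and 31 of the 38 regions with 6 or more CpGs per kb start above 40.

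Most of the excess lay in the densest regions. The 125 regions with 1.89 to 3 CpGs per kb averaged 18.5 ± 0.897 (SD, n = 3) in Control and 41.3 ± 0.416 (SD, n = 2) in IUGR, which differ by 22.8 points. The 43 regions with 3 to 6 CpGs per kb averaged 23.9 ± 0.444 (SD, n = 3) and 43.4 ± 0.271 (SD, n = 2), a difference of 19.5. These classes stood 4.53 and 9.95 points above the other listed regions in Control islets.

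The 38 regions with 6 or more CpGs per kb averaged 59.0 ± 1.12 (SD, n = 3) in Control and 62.7 ± 0.339 (SD, n = 2) in IUGR, which differ by 3.73 points. Their mean stood 45.0 ± 0.793 points (SD, n = 3) above the other listed regions in Control and 25.0 ± 0.413 points (SD, n = 2) in IUGR islets. The small mean difference joins regions that moved in opposite directions: 23 of the 38 scored higher and 15 lower. Their median length was 350.5 bases, against 1827 bases for all dense regions and 3966 for the others, with a median of 5 CpGs in each class. Across the 206 dense regions Spearman's rho of density was 0.435 with the Control score and −0.384 with the difference, and among the 168 below 6 CpGs per kb it was 0.124 and −0.205. These describe regions that share the same libraries, and regions are not replicates.

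**Figure D2:**
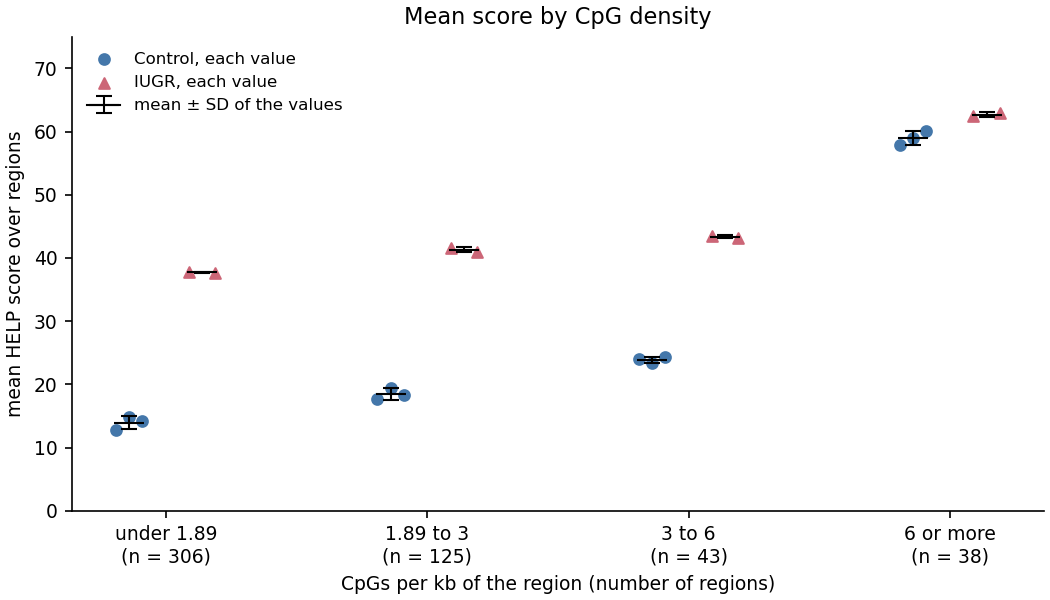
Mean HELP score over regions for each Control value (circles) and IUGR value (triangles) by CpGs per kb, with bars for the mean ± SD of the values. Control means climb from 13.9 in the other listed regions to 59.0 in the densest class, while IUGR means run from 37.7 to 62.7.

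Of the 23 listed regions that scored lower in IUGR islets, 19 were dense. Among the 206, 187 scored higher (90.8%) and 19 lower (9.22%), where 95.5% and 4.49% of all 512 listed regions did. With identical score lists counted once, 184 dense regions scored higher and 17 lower. The copies that scored lower all had 6 or more CpGs per kb. Among the other 306 regions 4 scored lower. Within the dense regions 15 of the 19 lower ones had 6 or more CpGs per kb, which held 39.5% lower regions, while 4 of the 168 below that density (2.38%) scored lower. The median difference was 20.5 over the dense regions and 21.8 over all listed regions, and the median absolute difference was 20.8 and 21.9.

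By Control score, lower regions were most frequent at the top of the scale. The 64 dense regions with a Control score under 10 had a median difference of 20.9 and all scored higher, which is fixed by the list: scores do not go below 0, and the smallest listed difference was 10.2. At 10 to 30, 68 of 72 scored higher, and at 30 to 60, 37 of 39, with median differences of 22.0 and 20.8. At 60 or more the 31 regions split into 18 higher and 13 lower. Of the other 306 regions 1 started at 60 or more, at 65.7. No dense region above a Control score of 72.3 scored higher, and all 11 above it, from 79.0 to 87.6, scored lower. The 11 include pairs of regions with identical score lists, on chromosomes 1 and 18. The 18 higher regions at 60 or more ended between 74.0 and 85.9, and 85.9 was the highest IUGR score of any dense region. At a Control score of 72.3 there were 27.7 points left to the end of the scale, but no single score in the region lists was above 91.3. From 79.0 or more this left little room for a listed rise of at least 10.2. The 91.3 was seen in these same lists and is not an end of the scale. How far the list fixes the direction of the 11 regions was not tested.

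**Figure D3:**
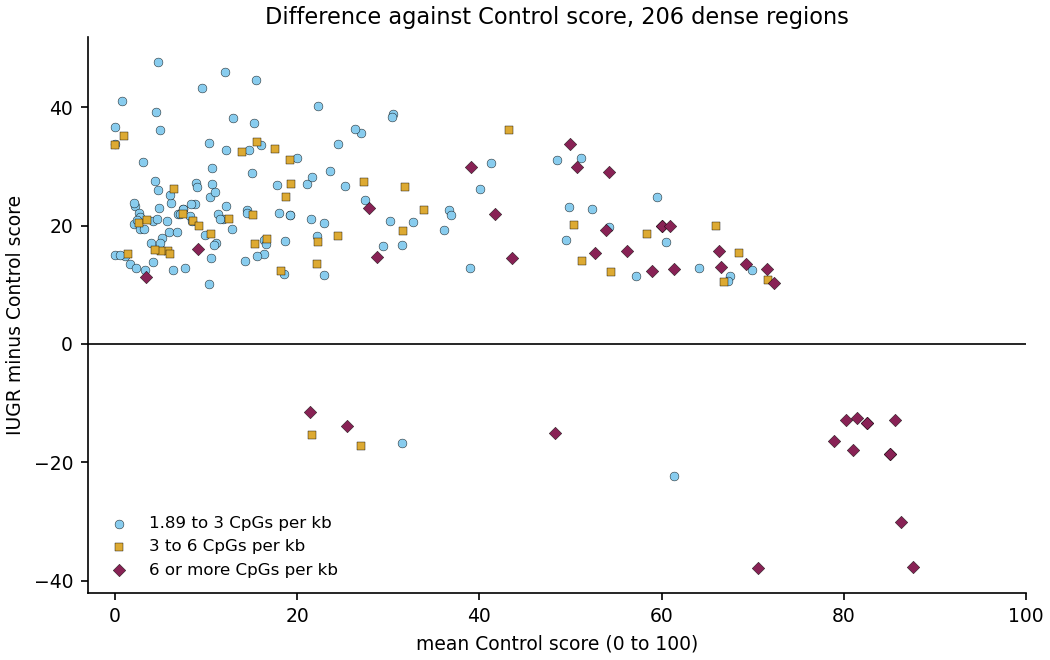
Difference between IUGR and Control score (points) against mean Control score (0 to 100) for the 206 dense regions, by CpGs per kb. The smallest difference in the list is 10.2 points in size, and all 11 regions above a Control score of 72.3 lie below 0.

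The 10 densest regions show how short and how high-scoring these stretches were. The densest lay on chromosome 1 from 81952218 to 81952324, with 4 CpGs in 107 bases or 37.4 CpGs per kb. Its Control scores were 88.3, 84.3 and 84.2 and its IUGR scores 71.9 and 73.6, lower by 12.9 points (SE 2.81; limma adjusted p = 0.00406). The next, on chromosome 19 from 22416465 to 22416606, held 5 CpGs in 142 bases. It went the other way, with 69.7, 70.1 and 68.0 in Control and 82.0 and 83.7 in IUGR islets (limma adjusted p = 0.00252). These neighbours in density thus differed in direction, and both were well above 60 in every value.

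Another short stretch, on chromosome 3 from 165021192 to 165021321, held 30.8 CpGs per kb and scored 30.3, 47.4 and 47.4 in Control and 60 and 67.3 in IUGR islets. Chromosome 10 from 59663911 to 59664334 held 13 CpGs in 424 bases, of which 8 were called different by the authors, the most of any dense region. Control scores there were 66.0, 47.3 and 38.8 and IUGR scores 75.1 and 86.0. The Control values of that region spread widely (SD 13.9), and the groups were 9.1 points apart at their nearest. On chromosome 12 from 13668534 to 13668716 the difference was among the smallest, with 76.1, 68.6 and 72.2 in Control and 81.2 and 83.9 in IUGR islets.

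Chromosome 4 from 99133877 to 99134143 held 22.5 CpGs per kb and scored lower, with 73.8, 84.6 and 78.5 in Control and 63.0 and 62.2 in IUGR islets. Chromosome 6 from 50846780 to 50847066 held 20.9 CpGs per kb and scored higher, with 52.9, 52.4 and 57.5 in Control and 82.9 and 83.7 in IUGR islets (limma adjusted p = 4.32e-04). The remaining 3 of the 10 are copies of identical score lists. A pair on chromosome 18, from 35489375 to 35489706 and from 35628787 to 35629118, scored 78.1, 83.5 and 86.0 in Control and 69.8 and 68.7 in IUGR islets. On chromosome 1 the region from 54517159 to 54517367 scored 85.9, 85.8 and 83.6 in Control and 65.1 and 67.9 in IUGR islets. Its copy from 55814749 to 55814957 has the same density, and with it these regions are 5 higher and 6 lower. The 6 hold both copies of the pairs on chromosomes 18 and 1, so fewer distinct score lists were lower than higher.

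Falls among dense regions are given on either side of a Control score of 60, a chosen cut. Starting scores ran from 21.4 to 48.3 below it and from 61.4 to 87.6 above it. Those above it include both copies of the pairs on chromosomes 1 and 18. At 60 or more, 13 regions went from a mean of 80.6 ± 1.88 (SD, n = 3) in Control to 60.3 ± 0.228 (SD, n = 2) in IUGR islets, and none ended under 32.9. Under 60, 6 regions went from 29.2 ± 0.925 (SD, n = 3) to a mean of 14.3, equal in both IUGR values. The steepest fall was the only listed region of the X chromosome, from 71126718 to 71127368, with 61.3, 73.2 and 77.4 in Control and 36.1 and 29.6 in IUGR islets. It was 37.8 points lower (SE 5.20; limma adjusted p = 8.97e-04). Nearly as steep was chromosome 9 from 4051041 to 4051389, where 4 of 5 CpGs were called different and Control scores of 87.5, 85.6 and 89.6 stood against 46.3 and 53.3. Both groups were tight relative to the distance between them.

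The third largest fall, on chromosome 9 from 93546136 to 93546829, went from 80.3, 91.3 and 87.1 to 56.0 and 56.4. Of the low-starting falls, chromosome 19 from 59785131 to 59786985 went from 25.6, 20.8 and 18.6 to 6.3 in both IUGR values. Chromosome 10 from 84502238 to 84502586 went from 23.8, 24.2 and 28.5 to 11.9 and 11.4. These 2 were singled out after their values were seen. With 6 or more CpGs per kb, 12 of 15 lower regions started at 60 or more, as did 9 of the 23 higher ones.

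Rises were largest at the sparse end of the dense class. All 10 of the largest had under 3 CpGs per kb, between 1.97 and 2.91, as had 123 of the 187 higher dense regions. That class also had the lowest mean Control score of the dense classes, 18.5. Whether the starting score bears on the size of these rises was not tested. At the top was chromosome 10 from 102248112 to 102250104, at 0, 14.3 and 0 in Control and 51.1 and 53.7 in IUGR islets, 47.6 points higher (SE 4.93; limma adjusted p = 4.60e-04). Chromosome 2 from 232507209 to 232509072 went from 10.4, 17.5 and 8.2 to 57.4 and 58.6. On chromosome 9 from 116940055 to 116942088 the Control scores were 2.3, 0 and 0 and the IUGR scores 43.0 and 40.7. All 3 regions began near the low end and ended near the middle of the scale.

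Chromosome 13 from 49995979 to 49998203 had uneven Control values of 20.1, 0 and 8.5 and IUGR values of 47.3 and 58.4. Higher starting points were seen on chromosome 1 from 104449304 to 104451756, with 30.2, 22.4 and 39.1 against 74.5 and 64.3. On chromosome 16 from 82382630 to 82384003 the scores were 19.1, 39.5 and 32.5 against 66.2 and 71.2. The largest rise at 6 or more CpGs per kb was 33.8 points, on chromosome 20 from 4896106 to 4896500, where 57.3, 32.5 and 59.9 stood against 83.4 and 83.9. The second Control value of that region lay far below the others (SD 15.1, the widest of the dense regions), and the region was singled out after its values were seen.

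**Figure D4:**
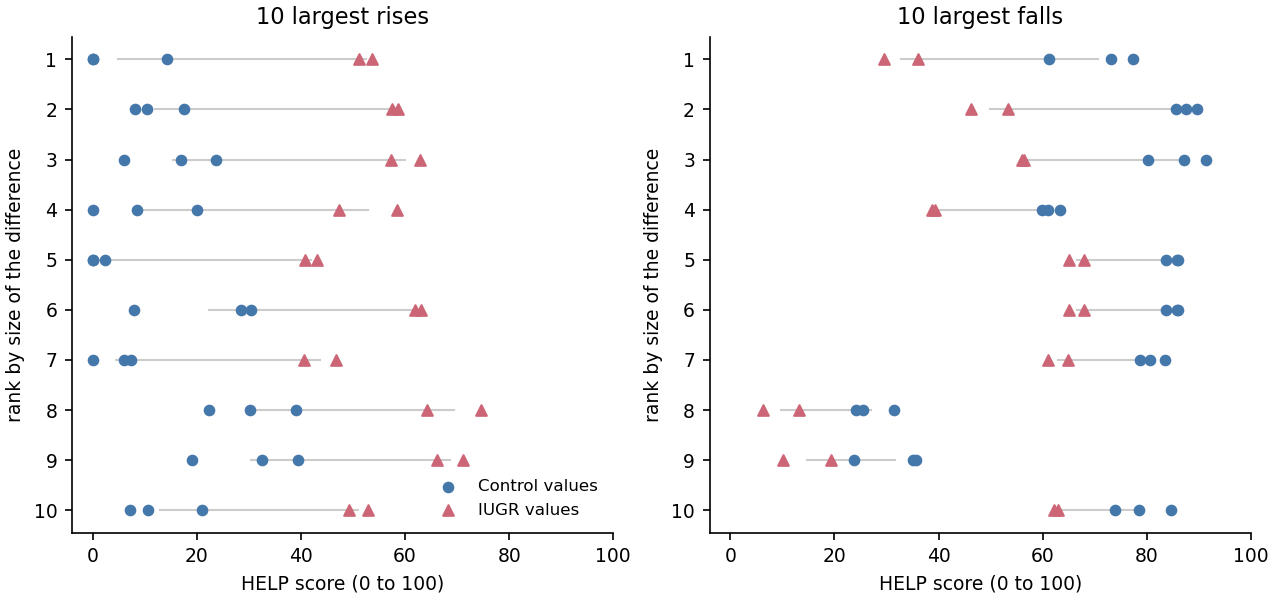
Every Control value (circles) and IUGR value (triangles) of the 10 largest rises and 10 largest falls among dense regions, on the HELP score scale (0 to 100); a grey line joins the group means. In the rises Control values lie between 0 and 39.5, and 8 of the 10 falls have every Control value above 50.

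A score of 0 in every Control value was rare and occurred in 4 of 206 dense regions (1.94%), against 5 of the other 306 (1.63%). One, on chromosome 12 from 44986263 to 44987150, ended at 33.1 and 34.1 in IUGR islets. Another, on chromosome 7 from 135904087 to 135905570, ended at 15.1 in both IUGR values. At least 1 Control value was 0 in 34 dense regions (16.5%) and 74 of the others (24.2%). No dense region was at 0 in both IUGR values. The spread within a group was similar in both classes, with a median SD of 3.84 over Control values and 2.23 over IUGR values in dense regions and 4.41 and 2.40 in the others.

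In most dense regions the authors called few CpGs different. The 206 dense regions held 1107 CpGs, of which the authors called 489 different (44.2%), against 47.7% in the others. Exactly 2 CpGs were called in 145 of the 206 dense regions and in 325 of all 512, and every CpG was called in 1 and 5 of them. The separate list of single CpGs put 71 CpGs inside 65 dense regions (31.6%, against 30.9% of all listed regions), 65 of these CpGs higher and 6 lower in IUGR islets, and each had the direction of its region. That direction is nearly fixed if these CpGs enter the score of the region, which no source used here states. Of the 71 CpGs 63 (88.7%) sat exactly at an end of the region, as did 148 of the 174 inside all listed regions. The sources do not state how the ends were set, and whether this place follows from that was not tested. All 3 Control columns were at 0 at 55 of the 65 higher CpGs, whose median IUGR score was 84.0, and both IUGR columns were at 0 at all 6 lower ones.

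Since no source used here states how CpGs were combined into a region score, a plain mean was tried. In 4 dense regions every called CpG was also listed singly, and there the summed differences of the called CpGs divided by the number of CpGs came within 1.81 points of the difference of the region. In the region on chromosome 6 from 50846780 to 50847066, 2 of 6 CpGs were called, at its first and last base. At 50846780 the CpG scored 0 in every Control column and 94.1 and 87.4 in IUGR islets, and the CpG at 50847066 scored 0 in every Control column and 76.8 and 87.7. Both thus crossed most of the scale. By subtraction the other 4 CpGs averaged 81.4 in Control and 81.7 in IUGR islets.

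The fall on chromosome 9 from 93546136 to 93546829 was the mirror of it. Its called CpGs averaged 91.2 in Control islets and were at 0 in IUGR islets, while the other 4 averaged 83.7 and 84.3. On chromosome 12 from 1500529 to 1503388, at 2.45 CpGs per kb, the called CpGs went from 0 to 89.6 and the other 5 averaged 2.94 and 0.406. On chromosome 20 from 14622565 to 14624835 they went from 0 to 85.9 and the other 3 averaged 24.5 and 21.7. The single CpGs carry running numbers that rise with position. These numbers spanned 7 in the chromosome 9 region and 8 in the chromosome 12 region, where 6 and 7 CpGs were counted. Which CpGs entered those 2 scores is thus not certain. The called CpGs were alike in size in these regions, and the regions differed in the level of the CpGs that were not called.

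Over the 14 regions with 6 or more CpGs per kb that held a listed CpG, 16 CpGs gave a median of 104% of the difference of their region (quartiles 96.5% and 117%) under the same plain mean. The 14 include both copies of the identical score list on chromosome 18, at 96.4% each. The CpGs of the 14 regions that were not listed singly had a median score of 80.5 in both groups. They include CpGs that the authors called different. Single regions moved either way. These CpGs averaged 57.6 in Control and 82.0 in IUGR islets on chromosome 20 from 4896106 to 4896500. On chromosome 15 from 15276009 to 15276690 they averaged 79.5 and 72.0. In the 51 less dense regions 55 listed CpGs gave a median of 58.8% (quartiles 47.6% and 83.5%). There the CpGs not listed singly had medians of 24.5 in Control and 42.3 in IUGR islets. For the 93 other listed regions with a listed CpG the median was 60.7%. A listed CpG makes a larger share of a smaller difference, and the median absolute difference was 15.8 points at 6 or more CpGs per kb and 21.3 in the less dense regions, so the shares of these classes are not independent of that. A share over 100%, seen in 13 of the 65 dense regions, means that the remaining CpGs together moved the other way under this mean. In the second densest region, on chromosome 19, the CpG at 22416465 alone would give 17.8 points, and the whole region differed by 13.6. The single CpGs had been listed for differences of this size, so these shares describe regions with a listed CpG and not the 141 dense regions without one.

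**Figure D5:**
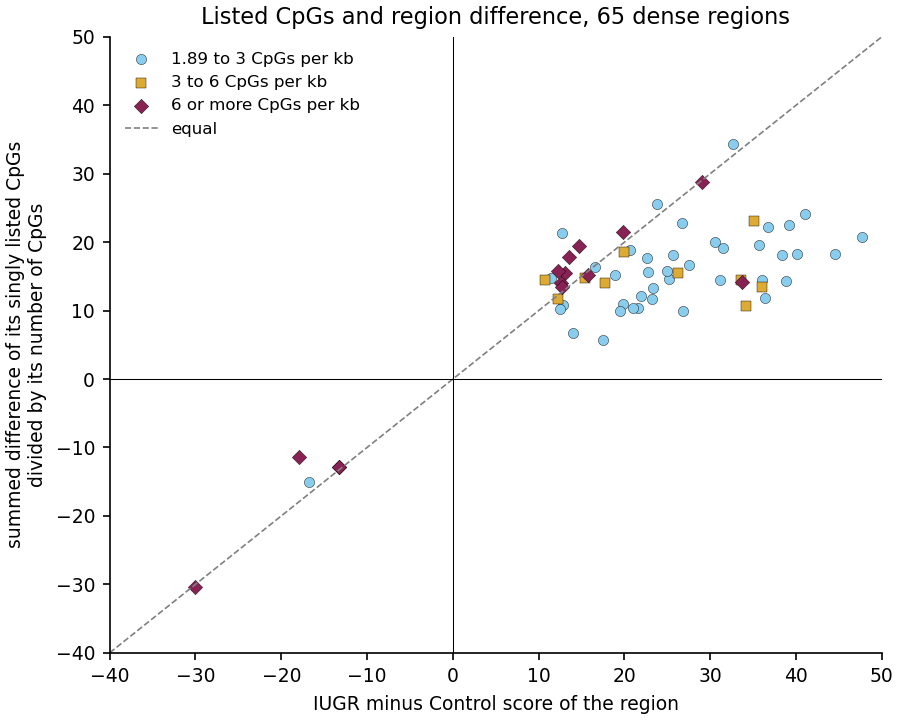
Summed difference of the singly listed CpGs of a region divided by its number of CpGs, against the IUGR minus Control score of the region, both in points, for the 65 dense regions with a listed CpG, by CpGs per kb; the dashed line marks equality. Most of the 14 densest regions lie on or near the line, and many less dense ones lie below it.

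The density threshold cut through a continuum. Just inside it lay chromosome 1 from 101302728 to 101304843, at 1.8904 CpGs per kb, with a difference of 33.7. The next 4 had differences of 32.8, 21.1, 27.05 and 31.5. Just outside it lay chromosome 6 from 25412502 to 25415704, at 1.8732 CpGs per kb, with a difference of 15.9, and the next 4 differed by 25.5, 23.1, 13.1 and 12.8. All 10 scored higher in IUGR islets.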

How the data were processed

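The authors' HELP scores per region and replicate, per the file headers, are the measure used, and positions follow the build that the submitters' processing notes name as rn6 or Rnor_6.0. Not given in the sources used here are the alignment, counting, normalization and filtering of tags, the way CpGs were combined into regions, and the test behind the deposited p-values and q-values. The number of CpGs of a region and the count of those called different are the authors' own, as is the mean difference, per the file headers; group differences recomputed from the rounded scores came within 0.1 of it. Of 4377 rows of single CpGs, 4376 were distinct. Members and lists were chosen with earlier results of these data known.

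All 512 regions were fitted in limma 3.58.1 (R 4.3.3) without trend or block, with Benjamini-Hochberg adjustment over the 512 regions, and only dense regions are printed. This fit was also run on simulated scores with the same spread in every region and most regions unchanged. The listed regions were all selected on a difference, so that run does not vouch for the p-values printed here. Means over regions were compared over the 3 Control and 2 IUGR values with two-sided exact permutation tests, whose smallest p is 0.2. The labels do not say that replicates are separate animals, so p-values measure the spread between these values, which may be technical. Counts by direction, density and starting score are descriptions without a test. Python 3.11.15, numpy 2.4.6, scipy 1.17.1, pandas 2.3.3 and matplotlib 3.10.9 were used. Regions named in the text were the 10 largest rises and falls, the 10 densest, those nearest the threshold, those with extreme Control scores, most CpGs, 2 or more listed CpGs or identical scores, and not all of them are printed. The sequences and nearest genes of the regions were not analysed here. The labels number 3 IUGR replicates, while the table holds 2 IUGR values.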

Additional observations from a re-analysis of the deposited data

How the results depend on the processing

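The number of dense regions called by limma stayed at 206 with the arcsine square root of the score and with a trend by mean score. It ran from 168 to 206 when any 1 value was left out, with 168 without either IUGR value, while 420 and 424 of all 512 listed regions then passed, when the lone IUGR value is assumed to vary like the Control values. Without 1 value the mean difference of dense regions ran from 18.2 to 18.8, the change in the gap between dense and other regions from −5.36 to −4.99, and the share of higher regions was 90.8% each time. The share of higher regions was 79.0% at 3 or more CpGs per kb and 60.5% at 6 or more. With the authors' q-value held to at most 0.01 it was 100%, from the 1 dense region left. The change in the gap was −11.4 at 3 or more and −19.4 at 6 or more CpGs per kb, each against all less dense regions, and −1.94 with medians. With identical score lists counted once it was −4.91, and with 5 or more CpGs −4.47. With that q-value the 1 dense region lay below the others in both groups, so its change in the gap is no narrowing. Among regions higher in IUGR, a choice on the outcome, it was −2.00. The mean difference stayed positive in all these settings where it was computed, from 3.73 at 6 or more CpGs per kb to 22.6 with medians. No paired analysis was possible because the score lists carry no replicate numbers. Each of these settings keeps the authors' selection on the difference, and the tag depth behind a score is unknown, so how far a score of 0 rests on few tags was not tested.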

Other observations

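Dense regions were spread over the genome. They lay on 21 chromosomes, and the median distance from one to the next on a chromosome was 4.55 Mb, with 2 pairs closer than 50 kb. Among chromosomes with more than 1 listed region, their share ran from 22.2% of the listed regions on chromosome 14 to 53.3% on chromosome 10, where 24 of 45 were dense. The only region of the X chromosome was dense.

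The surroundings of a dense region were described by the running number of the single CpG table, which rises with position, between the nearest listed CpGs on either side. Dense regions had a median of 0.971 numbered CpGs per kb around them (quartiles 0.714 and 1.30, 204 regions) and the others 0.904 (quartiles 0.685 and 1.14, 304 regions). Across dense regions Spearman's rho between the density of a region and that of its surroundings was 0.00420. The span between the nearest listed CpGs can be wide: 2 dense regions on chromosome 1 that lie 1297 kb apart shared 1 value, 0.428. These values are thus not the sequence next to a region, and regions that share a span were counted separately. With 6 or more CpGs per kb, the 15 lower regions had a median of 0.629 around them (quartiles 0.472 and 1.20) and the 23 higher regions 0.959 (quartiles 0.726 and 1.39), which overlap widely. The 4 lower regions below that density went the other way, with a median of 1.24 against 0.995 for all dense regions below it. The 15 lower regions include both copies of the pairs with identical score lists on chromosome 1 (0.428 and 0.428) and chromosome 18 (0.352 and 0.474). The 23 higher regions include both copies of the pair on chromosome 7 (0.552 and 0.552).

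Identical score lists came in 5 pairs of dense regions, 10 of 206 (4.85%), against 8 of the other 306 (2.61%). Each pair lay on 1 chromosome and had the same length and number of CpGs. On chromosome 10 the copies, from 18903693 to 18905751 and from 18911263 to 18913321, were 5511 bases apart and scored 18.4, 28.3 and 11.0 in Control and 35.8 and 46.2 in IUGR islets. On chromosome 1 the copies were 1297 kb apart, on chromosome 17 1111 kb, on chromosome 7 526 kb and on chromosome 18 139 kb. At 6 or more CpGs per kb these copies made up 6 of 38 regions. On chromosome 18 the listed CpG at the first base of each copy, at 35489375 and 35628787, also had the same scores, 88.5, 91.9 and 88.5 in Control and 0 in both IUGR columns.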
